A study of Mus musculus with 16 samples.

Results

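Plin4 and 9 genes induced by glucocorticoids were followed in the whole brains of mice that carry a frameshift in Tecpr2. The members are Plin4, Fkbp5, Sgk1, Tsc22d3, Zbtb16, Cdkn1a, Pdk4, Hif3a, Errfi1 and Nfkbia, 10 of the 55404 genes in the table. Plin4 was chosen by its measured values, which were higher in the knock-in mice, and the other 9 were listed because glucocorticoids are known to raise their transcripts, so that the question was whether Plin4 moved with them. The difference of Plin4 between genotypes is therefore given as a description without a test. Knock-in mice (Tecpr2 ki/ki, L1152fs on both alleles, made by CRISPR/Cas9 on C57BL/6J) were compared with their wild-type littermates (wt/wt), 8 mice each, all males aged 5 months, housed with the genotypes mixed within cages. Stranded total RNA libraries depleted of ribosomal RNA were made from whole brain, so each value is an average over all cell types of the brain.

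Glucocorticoids such as corticosterone enter the cell and bind the glucocorticoid receptor, which moves to the nucleus and binds DNA at glucocorticoid response elements. Genes near such elements then rise within hours, and several of them, such as Fkbp5, act back on the receptor or on the pathways it controls. In brain, glia and blood vessel cells respond strongly, and the transcripts serve as a readout of hormone exposure. Plin4 encodes perilipin 4, a coat protein of lipid droplets that is best known from fat cells and muscle, and its transcript has been seen to rise in brain after stress and glucocorticoid treatment.

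Plin4 (ENSMUSG00000002831) lies on the minus strand of chr17:56100591-56109803 in the GENCODE annotation of GRCm38, whereas reads were aligned to GRCm39. Its coding region, taken as the longest open reading frame of 4212 bases in a transcript of 5756 bases, is built largely from a repeat of 99 bases, or 33 codons. Shifted by 99 bases, the coding region matched itself at 58.4% of positions, against a median of 25.4% over all shifts tried. The 3 successive copies with the highest identity are printed because such copies bear on how reads of this gene can be counted. Capitals mark bases that differ from unit 1, and positions are counted from the first base of the transcript.
Plin4 repeat unit 1, positions 1407 to 1505: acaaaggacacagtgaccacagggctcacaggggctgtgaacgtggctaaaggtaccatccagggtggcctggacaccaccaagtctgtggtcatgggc
Plin4 repeat unit 2, positions 1506 to 1604: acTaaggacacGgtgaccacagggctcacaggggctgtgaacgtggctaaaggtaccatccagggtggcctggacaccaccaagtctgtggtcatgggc
Plin4 repeat unit 3, positions 1605 to 1703: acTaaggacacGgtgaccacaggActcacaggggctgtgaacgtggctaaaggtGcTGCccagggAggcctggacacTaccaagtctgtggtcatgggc
Unit 2 shared 97 and unit 3 shared 90 of 99 bases with unit 1. Of all words of 31 bases in the Plin4 transcript, 24.6% occurred more than once within it, against at most 1.1% for each of the other 9 members, and none occurred in the transcripts of another gene. A read that falls within identical copies can align to several places inside Plin4, and how such reads were counted is not given in the sources used here.

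The receptor binds best to an inverted repeat of the hexamer AGAACA, which on the opposite strand reads TGTTCT, with a spacer of 3 bases. RefSeq promoter windows (GRCm38.p6, 250 bases before to 50 bases after a start site) were given for 9 members in 18 windows, with none for Zbtb16, and were searched on both strands. The whole element, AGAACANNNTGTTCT, was found in 1 of the 18 windows, which belongs to Sgk1, and in 3 of all 32851 windows (0.00913%). This window is printed with those of Plin4 and Fkbp5, the 2 genes whose levels are set side by side most often here, and capitals mark each copy of the hexamer on either strand.
Sgk1, chr10:21993640-21993939, plus strand: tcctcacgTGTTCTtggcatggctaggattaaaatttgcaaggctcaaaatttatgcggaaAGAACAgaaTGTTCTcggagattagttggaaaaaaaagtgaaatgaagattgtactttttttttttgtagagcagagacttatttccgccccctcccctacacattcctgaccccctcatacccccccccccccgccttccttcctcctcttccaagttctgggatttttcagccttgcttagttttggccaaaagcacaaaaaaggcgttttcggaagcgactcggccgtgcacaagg
Plin4, chr17:56109733-56110032, minus strand: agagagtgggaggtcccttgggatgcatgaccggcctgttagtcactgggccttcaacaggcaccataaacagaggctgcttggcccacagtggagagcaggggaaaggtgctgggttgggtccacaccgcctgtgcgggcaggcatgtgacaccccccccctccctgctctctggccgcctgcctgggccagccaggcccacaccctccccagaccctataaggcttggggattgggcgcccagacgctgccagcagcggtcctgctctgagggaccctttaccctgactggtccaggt
Fkbp5, chr17:28486100-28486399, minus strand: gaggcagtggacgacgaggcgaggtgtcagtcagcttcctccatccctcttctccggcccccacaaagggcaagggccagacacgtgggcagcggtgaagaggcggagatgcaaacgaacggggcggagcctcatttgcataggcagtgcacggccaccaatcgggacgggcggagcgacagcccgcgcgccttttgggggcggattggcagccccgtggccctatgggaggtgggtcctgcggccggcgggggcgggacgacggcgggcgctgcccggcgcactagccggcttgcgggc
In the Sgk1 window the element began 189 bases before the start site. The hexamer alone was present in 4 of the 18 windows (3 of Sgk1 and 1 of Tsc22d3) and in 19.0% of all windows. The looser core ACANNNTGT, which overlaps the whole element, was present in 2 of the 18 windows, both of Sgk1, and in 6.85% of all windows. The windows of Plin4 and Fkbp5 held none of these letters. A match is a description of the letters in these windows only, and elements farther from the start site were not searched.

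The targeted gene matched the labels: Tecpr2 values were 274 to 320 in ki/ki mice and 928 to 1002 in wt/wt mice. The deposited values are linear and normalized, rounded to whole numbers, and totals per mouse were 11964284 to 12252324. Differences are given as ki/ki minus wt/wt on the log2(value + 1) scale with the standard error (SE) of limma, and a gene was called where p, adjusted over the 23244 genes that passed a filter on low values, was under 0.1. All 10 members passed the filter. Of the 23244 genes, 31 (0.133%) were called, 22 higher and 9 lower in ki/ki mice. Astrocyte markers differed between the genotypes: 7 of 8 were higher in ki/ki mice and 3 passed the test (Gfap, Aqp4 and Slc1a2). The summed value of the 8, most of it Slc1a2, was 58631 to 60936 in ki/ki and 55027 to 58524 in wt/wt mice. In whole brain, fewer cells of a type and less RNA per cell cannot be told apart.

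**Figure D1:**
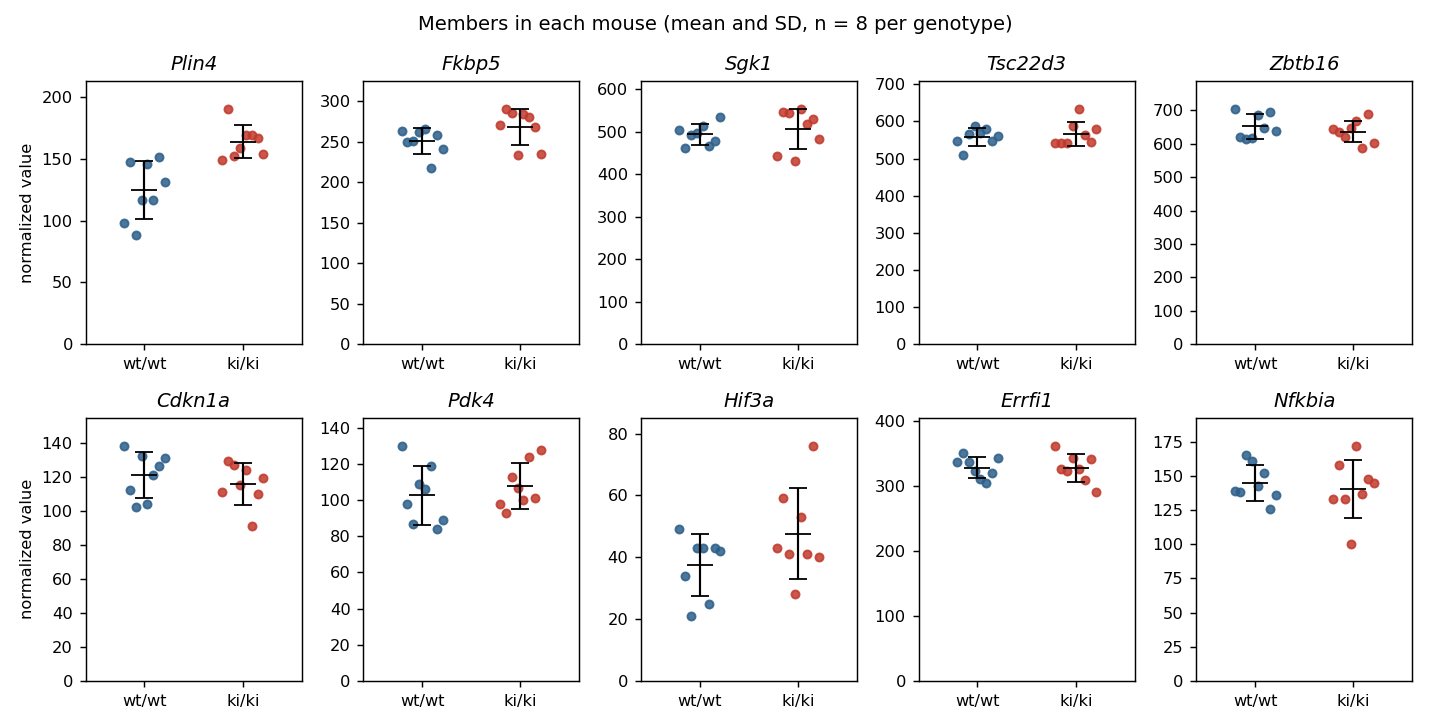
Deposited normalized value (linear axis from 0) of each of the 10 genes in each mouse, wt/wt in blue and ki/ki in red, with the mean and SD of 8 mice. Plin4 lay between 149 and 190 in ki/ki and between 88 and 151 in wt/wt mice, while the genotypes overlapped more widely for the other 9 genes.

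Plin4 was higher in ki/ki than in wt/wt mice, as the choice of the gene requires. Its values were 149 at the lowest, 163 at the median and 190 at the highest in ki/ki mice, and 88, 124 and 151 in wt/wt mice. The genotypes overlapped by a narrow margin, since 7 of 8 ki/ki mice lay above every wt/wt mouse and ki/ki mouse 1, at 149, lay just below the highest wt/wt mouse, mouse 7 at 151. The means were 164 ± 13.2 and 124 ± 23.5 (SD, n = 8 each), a ratio of 1.32 and a log2 difference of 0.41 (SE 0.0861). Values spread more among wt/wt mice (coefficient of variation 18.9%) than among ki/ki mice (8.09%), with wt/wt mice 1 and 3 lowest at 98 and 88. The differences of the other 9 members went both ways: 5 were higher and 4 lower in ki/ki mice, with a median log2 difference of 0.02 against -0.000981 over all genes tested, of which 49.5% were higher. None of the 9 was called, beside 0.133% of all genes, and none had an unadjusted p under 0.05, beside 6.08% of all genes. The latter count rested on single mice: without ki/ki mouse 4 it was 2, Fkbp5 (limma unadjusted p = 0.0287) and Hif3a (0.0105), and without ki/ki mouse 8 or wt/wt mouse 1 it was 1. The genotypes overlapped for each of the 9, whereas 0.086% of all genes had genotypes that did not overlap.

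Among the members that act on the receptor or its signals, Fkbp5 came nearest to a difference. Fkbp5 (ENSMUSG00000024222, chr17:28399094-28517527, minus strand, like the later positions from the GRCm38 annotation) encodes a co-chaperone of Hsp90 that lowers the hormone affinity of the receptor. Its values were 234, 275 and 290 (lowest, median, highest) in ki/ki and 217, 254.5 and 266 in wt/wt mice. Although 6 of 8 ki/ki mice lay above every wt/wt mouse, ki/ki mice 4 and 8 lay low, at 234 and 235, and the log2 difference of 0.09 (SE 0.0535) did not pass the test (limma, adjusted p = 0.877). Tsc22d3 (chrX:140539528-140600659, minus strand) encodes GILZ, a leucine zipper protein that carries much of the anti-inflammatory action of glucocorticoids. Its values were 542, 553.5 and 633 in ki/ki and 510, 563.5 and 587 in wt/wt mice, and the log2 difference was 0.02 (SE 0.0373, limma adjusted p = 0.972). The median of Tsc22d3 was thus lower in ki/ki mice although its mean was slightly higher. Nfkbia (chr12:55489410-55492647, minus strand), which encodes the inhibitor that holds NF-kB in the cytoplasm, had values of 100, 141 and 172 in ki/ki and 126, 141 and 165 in wt/wt mice. Its medians were equal and its log2 difference was -0.05 (SE 0.0765, limma adjusted p = 0.962).

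Among the members that encode kinases and their regulators, none passed the test between the genotypes. Sgk1 (chr10:21882184-21999903, plus strand), a kinase that controls ion channels and transporters, had values of 431, 523.5 and 553 in ki/ki and 462, 495 and 535 in wt/wt mice. The ki/ki mice included the lowest and the highest values, and the log2 difference was 0.03 (SE 0.0443, limma adjusted p = 0.958). Pdk4 (chr6:5483351-5496309, minus strand), which encodes the kinase that shuts off pyruvate dehydrogenase and so spares glucose, had values of 93, 104 and 128 in ki/ki and 84, 102 and 130 in wt/wt mice. All 8 ki/ki mice lay within the wt/wt range of Pdk4, and its log2 difference was 0.08 (SE 0.0854, limma adjusted p = 0.934). Cdkn1a (chr17:29090976-29100727, plus strand), which encodes the cell cycle inhibitor p21, ranged from 91 to 129 in ki/ki and from 102 to 138 in wt/wt mice, with a log2 difference of -0.06 (SE 0.0779, limma adjusted p = 0.955). Errfi1 (chr4:150853919-150868892, plus strand), which encodes an inhibitor of the EGF receptor, ranged from 290 to 361 and from 304 to 350, and its log2 difference was -0.00351 (SE 0.0467, limma adjusted p = 0.996).

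Among the transcription factors, Hif3a had the second largest difference of the members, and also the lowest values and the widest relative spread. Hif3a (chr7:17031507-17062427, minus strand), a hypoxia-inducible factor with isoforms that restrain its relatives, had values of 28, 42 and 76 in ki/ki and 21, 42.5 and 49 in wt/wt mice. The medians were nearly equal, and the log2 difference of 0.33 (SE 0.179, limma adjusted p = 0.875) came from ki/ki mice 2, 5 and 7, at 59, 53 and 76, and from wt/wt mice 3 and 6, at 21 and 25. Zbtb16 (chr9:48654297-48836222, minus strand), which encodes the zinc finger repressor PLZF, had values of 588, 639.5 and 688 in ki/ki and 613, 642.5 and 703 in wt/wt mice. No ki/ki mouse lay above the highest wt/wt mouse, and the log2 difference was -0.04 (SE 0.0363, limma adjusted p = 0.931). Per kilobase of exon, mean levels in wt/wt mice were highest for Tsc22d3 (129), Zbtb16 (123) and Sgk1 (101) and lowest for Plin4 (21.5) and Hif3a (5.59). Per kilobase, Plin4 (28.3) and Fkbp5 (28.3) had the same mean level in ki/ki mice.

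**Figure D2:**
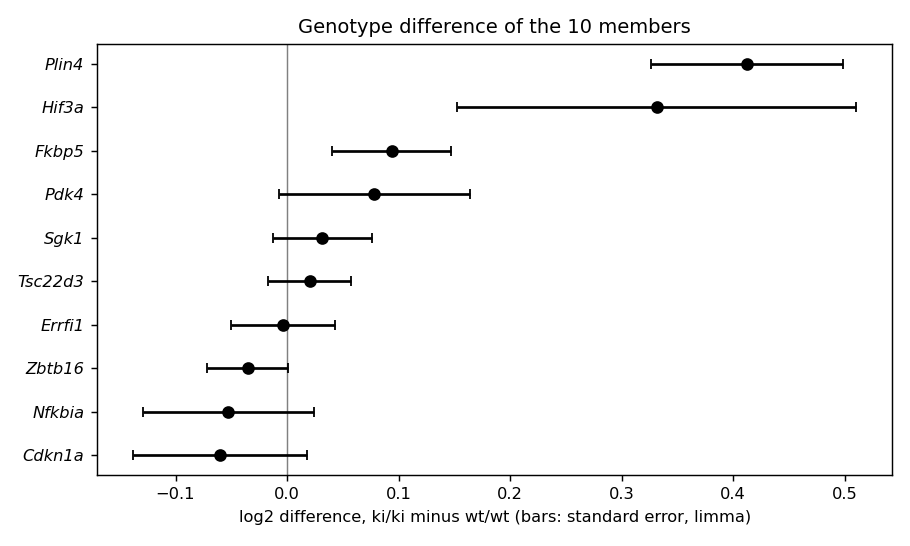
Log2 difference (ki/ki minus wt/wt, log2(value + 1) scale) of each of the 10 genes as a point, with the standard error of limma as a bar. Plin4, at 0.41, was chosen for its difference, Hif3a had a difference of 0.33 with the widest bar, and the other 8 genes lay between -0.06 and 0.09.

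Whether Plin4 moved with the other members was then asked from mouse to mouse within genotypes, which does not use the difference that chose Plin4. After values were centred on the mean of each genotype, Pearson's r of Plin4 over the 16 mice was 0.176 with Fkbp5, 0.143 with Sgk1, 0.189 with Zbtb16, 0.425 with Hif3a and 0.00517 with Cdkn1a. The remaining members had negative values, -0.186 for Tsc22d3, -0.304 for Pdk4, -0.12 for Errfi1 and -0.161 for Nfkbia. Thus 5 of 9 values were positive, with a median of 0.00517. Over all 13764 genes with a mean value of at least 50, the median r with Plin4 was -0.0468, 44.0% were above 0, and all but the lowest and the highest 5% of genes lay between -0.506 and 0.451, a range that held all 9 members. Hif3a, with a mean value below 50, was not among those 13764 genes. The values moved with single mice: without wt/wt mouse 1, r was 0.628 with Hif3a, 0.434 with Zbtb16, 0.18 with Cdkn1a and -0.115 with Pdk4. Without wt/wt mouse 3 they were 0.159, -0.0144, -0.354 and -0.683. These values describe 16 mice and carry no p. Whether depth or RNA quality, which may act on many genes at once, had a part in them was not tested.

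Single mice show these values directly. Ki/ki mice 4 and 8 had the lowest Fkbp5 (234 and 235) and lay below the ki/ki median of 163 in Plin4 as well (159 and 154), whereas ki/ki mouse 3 had the second highest Fkbp5 (285) and the second lowest Plin4 (152). Ki/ki mouse 2 was highest of its genotype in both, at 290 for Fkbp5 and 190 for Plin4. Among wt/wt mice, mouse 3 had the lowest Plin4 (88) at a middling Fkbp5 (251), and mouse 6 had the lowest Fkbp5 (217) at a Plin4 of 117.

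**Figure D3:**
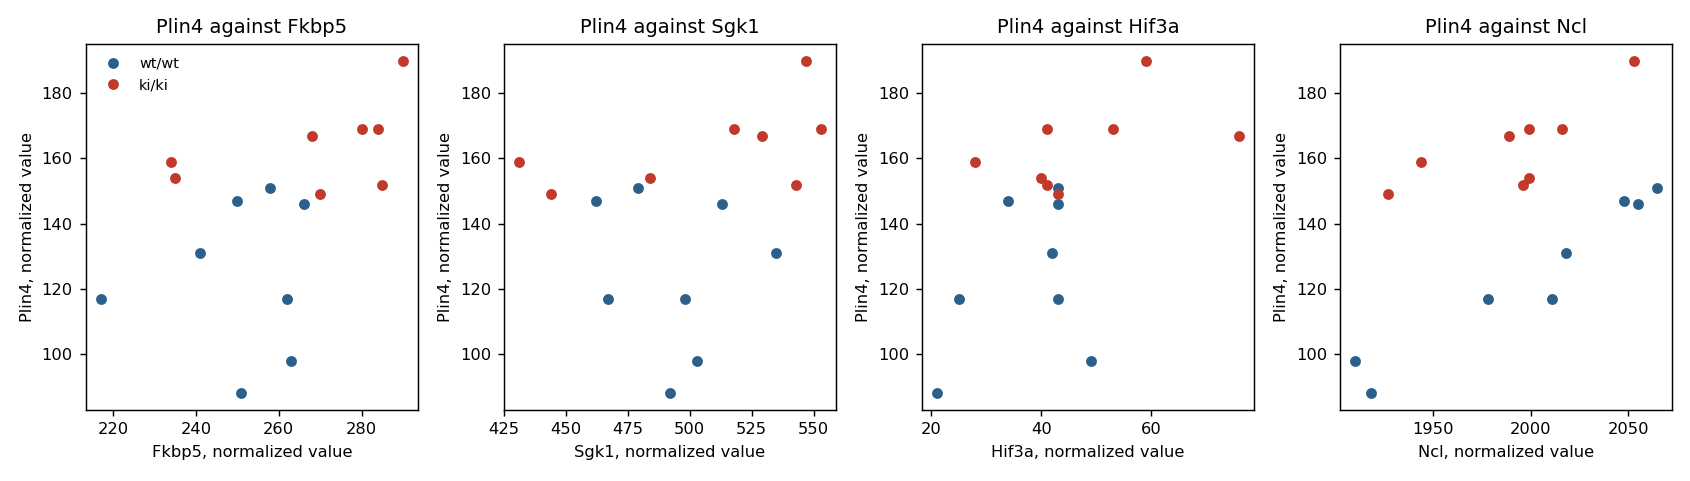
Normalized value of Plin4 (vertical axis) against those of Fkbp5, Sgk1, Hif3a and Ncl (horizontal axes; axes do not start at 0), 1 point per mouse, wt/wt in blue and ki/ki in red. Points are scattered for the 3 glucocorticoid-induced genes. Ncl is shown because it had the highest centred r with Plin4 in these same mice. With Ncl, r was 0.968 in wt/wt and 0.765 in ki/ki mice, and 0.252 in ki/ki without mice 1 and 2.

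Within each genotype (n = 8), an exact two-sided permutation test over all pairings was made for each of the 9 genes, 18 tests in all, with no adjustment over them. With Fkbp5, r was 0.46 in ki/ki (rho 0.395, exact permutation p = 0.247 for r and 0.333 for rho) and 0.0734 in wt/wt mice (rho -0.012, exact permutation p = 0.874 and 0.99). Without the 2 mice whose Plin4 lay farthest from the median on the log2 scale (mice 1 and 2 in ki/ki, 1 and 3 in wt/wt), r with Fkbp5 was 0.418 and 0.522. No Pearson p of the 18 was under 0.05, and the lowest was that of Nfkbia in wt/wt mice, where r was -0.676 (exact permutation p = 0.0693). Its Spearman rho was -0.755 (exact permutation p = 0.0377), the only one of 18 rho values with a p under 0.05, and r was -0.828 without those 2 mice. In ki/ki mice r with Nfkbia was 0.465 (rho 0.687, exact permutation p = 0.239 for r and 0.0672 for rho), opposite in sign, and the difference between the genotypes was not tested. With Hif3a, r was 0.518 in ki/ki (rho 0.428, exact permutation p = 0.188 and 0.287) and 0.441 in wt/wt mice (rho 0.196, exact permutation p = 0.263 and 0.647), and 0.495 and 0.412 without the 2 farthest mice. Sgk1 had the highest r of the 9 genes in ki/ki mice, at 0.567 (rho 0.575, exact permutation p = 0.149 and 0.143). In wt/wt mice its r was -0.106 (rho -0.204, exact permutation p = 0.802 and 0.631). Without the 2 farthest mice these r values were 0.312 and -0.0575. The sign of r was the same in both genotypes for 5 of 9 genes, with 7 of 9 positive in ki/ki and 3 of 9 in wt/wt mice.

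In a fit across all genes with genotype and the centred level of Plin4 as terms, the slope on Plin4 was called for no gene (0 of 23243 at limma adjusted p under 0.1, with 7.12% at an unadjusted p under 0.05). The count depended on single mice, with 33 genes called without wt/wt mouse 1, 3 without wt/wt mouse 2 and 1 without wt/wt mouse 3, none of them a member. Of the 9 members, Hif3a alone had an unadjusted p under 0.05: it rose by 0.83 on the log2 scale per log2 unit of Plin4 (SE 0.388, limma unadjusted p = 0.0386, adjusted p = 0.690). No member had such a p without ki/ki mouse 1, 2, 3 or 8, or without wt/wt mouse 5, 7 or 8. None had it after quantile normalization either. Fkbp5 had a slope of 0.09 (SE 0.132, limma adjusted p = 0.936) and Sgk1 one of 0.07 (SE 0.110, limma adjusted p = 0.937). The steepest negative slope was that of Pdk4, at -0.28 (SE 0.209, limma adjusted p = 0.847).

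The other members were also compared with each other from mouse to mouse. Of the 36 pairs that leave Plin4 out, 24 (66.7%) had a positive centred r (median 0.0845) and 5 (13.9%) had an r over 0.5. Over all pairs of the 13765 genes with a mean value of at least 50, 50.5% were positive and 3.52% were over 0.5. Pairs that share a gene are not independent. Hif3a, with means of 47.6 in ki/ki and 37.5 in wt/wt mice, was below that limit and is not in this background. The 5 pairs over 0.5 were Fkbp5 with Sgk1 (0.618), Sgk1 with Nfkbia (0.597), Fkbp5 with Hif3a (0.574), Sgk1 with Hif3a (0.571) and Zbtb16 with Hif3a (0.555). The last 3 of them thus hold a gene that the background leaves out. The genes named in these pairs are thus Fkbp5, Sgk1, Hif3a, Nfkbia and Zbtb16, and Plin4 reached 0.5 with none of the 9 when all 16 mice were kept. The pair Fkbp5 and Sgk1 had an r of 0.745 in ki/ki and 0.338 in wt/wt mice, and ki/ki mouse 4 was the lowest of its genotype in both, at 234 and 431. Sgk1 and Nfkbia had an r of 0.779 in ki/ki and -0.0364 in wt/wt mice, so their pooled value rests on ki/ki mice. The other 3 pairs were positive in both genotypes, with values from 0.456 to 0.674. Tsc22d3, Cdkn1a, Pdk4 and Errfi1 had no r over 0.5 with any member, and the lowest value of all pairs was -0.508, between Pdk4 and Errfi1.

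**Figure D4:**
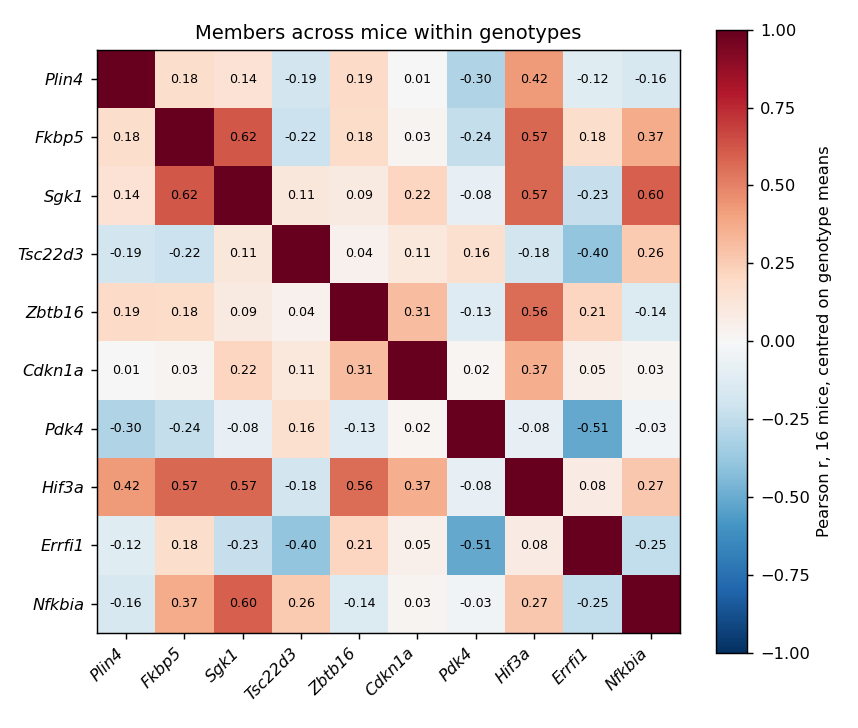
Pearson's r between each pair of the 10 genes over 16 mice, on log2(value + 1) centred on genotype means (colour scale from -1 in blue to 1 in red, value printed in each cell). Fkbp5, Sgk1 and Hif3a have values over 0.5 with each other, and the row of Plin4 lies between -0.304 and 0.425.

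With the centred level of Fkbp5 in place of Plin4, no gene was called either (0 of 23243, with 4.65% at an unadjusted p under 0.05). Sgk1 had a slope of 0.62 on Fkbp5 (SE 0.198, limma unadjusted p = 0.0025, adjusted p = 0.990) and Hif3a one of 2.21 (SE 0.692, limma unadjusted p = 0.0025, adjusted p = 0.990), so 2 of the 9 members had an unadjusted p under 0.05. Without ki/ki mouse 4 only Hif3a did, and the Sgk1 slope was 0.44 (SE 0.225, limma unadjusted p = 0.0555). Without ki/ki mouse 8 or wt/wt mouse 6 Nfkbia did as well, for 3 of the 9. The slope of Plin4 on Fkbp5 was 0.35 (SE 0.424, limma adjusted p = 0.990). The genes most like Fkbp5 were Aprt (r 0.83), Clk4 (0.797), Gm20555 (0.793), Pdgfc (0.788) and Zfp248 (0.783), none of which is on the lists of glucocorticoid-induced genes used here.

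The difference of Plin4 between genotypes, which chose the gene, is given beside the level of the other members as a description. In a linear fit it was 0.41 (SE 0.108) with genotype alone, 0.39 (SE 0.115) with the mean log2 value of the other 9 members as a covariate and 0.38 (SE 0.121) with Fkbp5 as a covariate. With the mean of 20 further glucocorticoid-induced genes as covariate it was 0.43 (SE 0.115). These covariates differed little between genotypes, and the slope of Plin4 on the other 9 members was 0.39 (SE 0.700), so these fits had little room to move the estimate.

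The genes whose pattern across mice was most like that of Plin4 were named by the highest centred r over 16 mice, among genes with a mean value of at least 50. They were Ncl (0.907), Gm45457 (0.903), Gm43789 (0.84), Gm42546 (0.813), Srpk3 (0.809), Abraxas2 (0.794), Usp40 (0.794) and Gm45130 (0.782). Ncl encodes nucleolin, an abundant protein of the nucleolus. Gm45457, Gm43789, Gm42546 and Gm45130 carry the GENCODE biotype TEC, given to transcribed regions that still await experimental proof, so 4 of the 8 are of a class that makes up 4.61% of the 13765 genes ranked. None of the 8 was called between genotypes (limma), and Ncl had values of 1927 to 2053 in ki/ki and 1910 to 2065 in wt/wt mice with a log2 difference of -0.01 (SE 0.0226, limma adjusted p = 0.985). Ncl varied little, with an SD within genotypes of 0.037 on the log2 scale against 0.216 for Plin4. Its slope on Plin4 was not called in the fit of all mice. The r of Plin4 with Ncl was 0.765 in ki/ki and 0.968 in wt/wt mice. Without the 2 mice with the most extreme Plin4 it was 0.252 in ki/ki, where it rests on mice 1 and 2, and 0.938 in wt/wt mice. Wt/wt mice 1 and 3, lowest in Plin4 at 98 and 88, were also lowest in Ncl, at 1910 and 1918.

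A list of 7 long non-coding RNAs that stay in the nucleus was added after these genes had been seen. GENCODE gives Snhg11, which is on that list, the biotype protein_coding (centred r 0.649). All 7 had a positive centred r with Plin4, from 0.388 (Neat1) through 0.61 (Malat1) to 0.683 (Meg3), whereas the median over all genes was -0.0468. These values were higher in wt/wt than in ki/ki mice, at 0.76 and 0.218 for Malat1, 0.735 and 0.475 for Meg3, 0.661 and 0.00812 for Kcnq1ot1 and 0.539 and 0.371 for Neat1, and the difference between the genotypes was not tested.

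**Figure D5:**
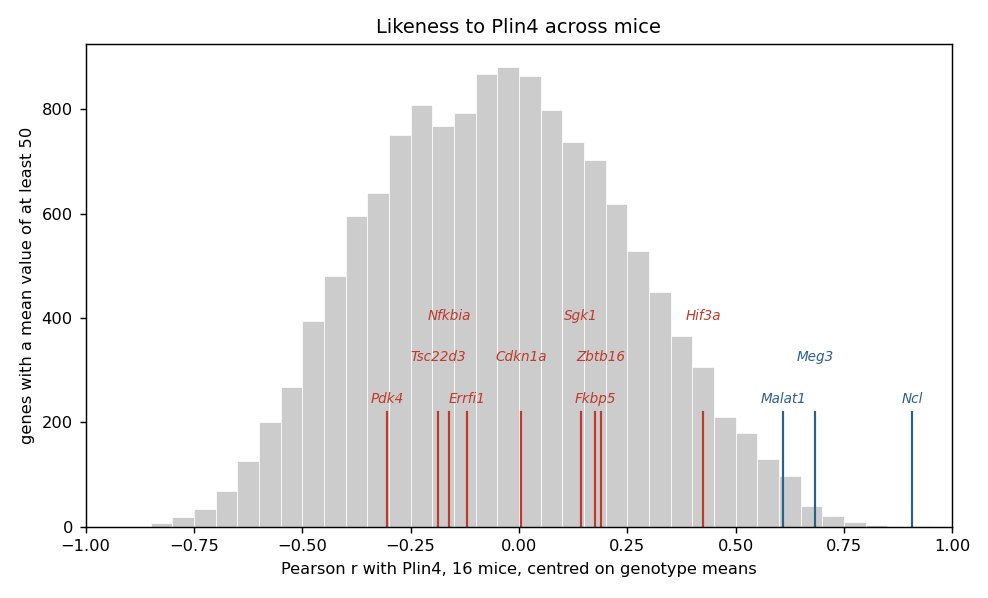
Number of genes (bars) by their Pearson r with Plin4 over 16 mice, centred on genotype means, for 13764 genes with a mean value of at least 50. Red lines mark the 9 glucocorticoid-induced genes, from -0.304 (Pdk4) to 0.425 (Hif3a), and blue lines mark Malat1 (0.61), Meg3 (0.683) and Ncl (0.907). Hif3a has a mean value below 50 and is not counted in the bars. The genes in blue were chosen after the data were seen, Ncl for its r.

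No further glucocorticoid-induced gene was called between genotypes, beside 0.133% of all genes tested. At that share, lists of this size would mostly hold none. Of 21 listed, 20 were tested, 11 were higher and 9 lower in ki/ki mice, and none was called, with a median log2 difference of 0.00639. Mt1, Cebpd and Gpd1 had an unadjusted p under 0.05, beside 6.08% of all genes. Mt1 differed by 0.09 (SE 0.0324, limma unadjusted p = 0.0049) and Cebpd by 0.37 (SE 0.179, limma unadjusted p = 0.0433). Gpd1 differed by -0.08 (SE 0.0363, limma unadjusted p = 0.0268). Glul (glutamine synthetase) and Fam107a (an actin-binding stress gene) had the highest values, and their differences were 0.01 (SE 0.0147) and 0.00145 (SE 0.0340, limma adjusted p = 0.955 and 0.997). Lcn2, the one not tested, was at 0 to 7 in all mice. From mouse to mouse, the mean log2 value of the 20 tested genes had a centred r of -0.143 with Plin4. It was 0.0376 in ki/ki and -0.175 in wt/wt mice, and the centred r of single genes ranged from -0.483 to 0.374. Of 16 genes of the receptor and hormone handling, 4 were higher and 12 lower, none was called, and the median log2 difference was -0.02. The glucocorticoid receptor gene Nr3c1 had a mean of 1717 in ki/ki and 1739 in wt/wt mice, with a difference of -0.02 (SE 0.0271, limma adjusted p = 0.958). The 2 of highest value, Hsp90ab1 and Hsp90aa1, chaperones that hold the receptor ready for hormone, differed by -0.02 (SE 0.0161) and -0.04 (SE 0.0196), with a limma adjusted p of 0.902 and 0.807.

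The relatives of Plin4 on lipid droplets were not called either, beside 0.133% of all genes tested. Of 17 genes of perilipins and lipid droplets, 14 were tested, 10 were higher and 4 lower in ki/ki mice, and the median log2 difference was 0.03. Plin3, a perilipin of most tissues, had values of 165 to 194 in ki/ki and 138 to 192 in wt/wt mice, with a difference of 0.15 (SE 0.0651, limma adjusted p = 0.735). Plin2 had means of 58.1 and 51.9 (log2 difference 0.17, SE 0.108, limma adjusted p = 0.890), and Plin5 had 19.8 and 17 (0.18, SE 0.175, limma adjusted p = 0.931). From mouse to mouse, the centred r with Plin4 was -0.649 for Plin3, -0.101 for Plin2 and 0.272 for Plin5. Plin1, the perilipin of fat cells, was at 0 to 5 in all mice. The genes with the highest values, Mgll and Bscl2, which act in lipid breakdown and droplet assembly, differed by 0.00638 (SE 0.0269) and 0.04 (SE 0.0367, limma adjusted p = 0.987 and 0.931).

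Plin5 is also the neighbour of Plin4 on chromosome 17. On its other side, Hdgfl2 overlaps the end of Plin4 by position on the opposite strand, and it had a log2 difference of 0.04 (SE 0.0382, limma adjusted p = 0.931) and a centred r with Plin4 of 0.273. The libraries were stranded, but the strand setting of the counting is not given in the sources used here. Of the 12 nearest genes in the table, 6 on each side, none was called, beside 0.133% of all genes tested.

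Pathways in which single members also act held no called gene, beside 0.133% of all genes tested. At that share, lists of this size would mostly hold none. Of 15 clock genes, 9 were higher and 6 lower and none was called; Tef and Hlf had the highest values, with differences of 0.07 (SE 0.0215, limma adjusted p = 0.266) and -0.02 (SE 0.0217, limma adjusted p = 0.957). Of 10 immediate early genes, 2 were higher and 8 lower, with Egr1 at -0.04 (SE 0.0776) and Arc at 0.08 (SE 0.119), and none was called. Of 7 p53 targets tested beside Cdkn1a, 1 was higher and 6 lower, with Ccng1 at -0.00821 (SE 0.0332) and Mdm2 at -0.08 (SE 0.0489), and none was called. Of 11 genes of fatty acid oxidation, the pathway in which Pdk4 favours fat over glucose, 7 were higher and 4 lower, with Hadha at -0.03 (SE 0.0351), and none was called. Of 10 NF-kB genes beside Nfkbia, 5 were higher and 5 lower, with Nfkb1 at 0.12 (SE 0.0450, limma adjusted p = 0.641) and Rela at 0.04 (SE 0.0563), and none was called.

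Markers of cells that could carry Plin4 or respond to glucocorticoids were read beside these values. Fat cell markers were near 0: Adipoq, Plin1, Cidec and Lep did not exceed 5 in any mouse, and the summed list (120 to 166 in ki/ki, 132 to 170 in wt/wt mice) was almost wholly Lipe. Skeletal muscle markers Ckm, Myh4, Tnnt3 and Myh1 were too low to be tested, and Acta1 had means of 41.6 and 40.8. The astrocyte list was the only one whose summed value did not overlap between genotypes, with Gfap, an intermediate filament of reactive astrocytes, higher by 0.58 on the log2 scale (SE 0.0265, limma adjusted p = 4.67e-27), the water channel Aqp4 by 0.14 (SE 0.0221, limma adjusted p = 3.75e-05) and the glutamate transporter Slc1a2 by 0.06 (SE 0.0110, limma adjusted p = 0.00229). Most of that sum was Slc1a2, with means of 45610 in ki/ki and 43650 in wt/wt mice. The mean log2 value of the astrocyte list had a centred r of -0.491 with Plin4 across mice. In other lists this r went both ways, at -0.515 for neurons, -0.432 for oligodendrocytes and 0.394 for microglia. The part of the astrocyte list in the Plin4 difference was not tested. Of 8 neuronal markers, 7 were lower and Gad1, an enzyme of GABA synthesis, was called (-0.09, SE 0.0207, limma adjusted p = 0.0681). Of 6 microglial markers 5 were higher and none was called, with Csf1r at 0.02 (SE 0.0349) and Cx3cr1 at 0.10 (SE 0.0437). The 2 neuronal markers of highest value, Snap25 and Syt1 of the synapse, differed by -0.05 (SE 0.0490) and -0.03 (SE 0.0130), and the astrocyte transporter Slc1a3 by 0.03 (SE 0.0178). No oligodendrocyte, endothelial, mural, choroid plexus, fibroblast or red cell marker was called, beside 0.133% of all genes tested. The markers of highest value in these lists differed by 0.00267 (Mbp), -0.02 (Flt1) and 0.03 (Slco1a4), -0.01 (Rgs5) and 0.03 (Pdgfrb), -0.09 (Ttr) and -0.06 (Kl), 0.04 (Col1a2) and 0.00149 (Col1a1), and 0.03 (Alas2) and 0.16 (Hba-a1).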

How the data were processed

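Stranded total RNA libraries came from the brains of 16 male mice, 8 of each genotype, with genotypes and age taken from the labels and the sex from the study. Per the study's methods, the authors trimmed reads with Trim Galore 0.6.10 and cutadapt 3.4, aligned them to GRCm39 with STAR 2.7.10b, counted reads per gene with summarizeOverlaps and tested genes with DESeq2 1.40.2. The deposited score per gene and mouse is a linear normalized value rounded to whole numbers, whose normalization the sources do not name. The 16 single-mouse tables were identical to the series table. Rounding limits the precision of low genes, raw counts were not restored, and depth per mouse is unknown.

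Here limma 3.58.1 in R 4.3.3 (trend, robust) was fitted to log2(value + 1) of genes with a sum over all mice above 16 and with 4 or more mice of either genotype above 5, with genotype as the only term and Benjamini-Hochberg adjustment over all genes tested. It was tested on simulated data before use. Fold changes on this scale understate those of low genes. Slopes on Plin4 or Fkbp5 used the level centred within genotypes beside genotype. Correlations were tested with exact permutation (scipy 1.17.1). Each sample is a separate mouse, and no batch is labelled. In all 120 pairs of libraries, differences exceeded counting noise (variance ratio 1.451 to 3.407), so no library was counted as a copy of another. The labels do not say whether replicate numbers pair the mice, and the main fits did not pair them.

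Members and lists were chosen with earlier results of these data known. The genes named are the members, the called genes and the 2 of highest mean value in each list, and those most like Plin4 (8) and Fkbp5 (5) across mice; 2 of the genes this rule names are not reported here. Further genes (Nr3c1, Lcn2, Mt1, Cebpd, Gpd1, perilipins, neighbours of Plin4, cell markers near 0) were named after their values were seen. Alternatives were other pseudocounts, scalings and filters, a fit that is not robust, a replicate block, other covariates and leaving out each mouse. The covariates Ncl and the 7 nuclear RNAs were chosen after seeing the data.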

Additional observations from a re-analysis of the deposited data

Results flagged for a closer look

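No single value of the 10 genes passed the Dixon test for an outlier within its genotype. In each of 20 groups of 8 mice (10 genes, 2 genotypes), the gap between the highest or the lowest mouse and its nearest neighbour, divided by the range, was at most 0.512, under the 95% critical value of the Dixon test.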

How the results depend on the processing

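The members other than Plin4 were called in none of the 24 alternatives in which they were tested (0 calls, lowest limma adjusted p 0.664), Hif3a being left out by the filter on a mean value of at least 50, and the slope on Fkbp5 gave 0 calls throughout. The number of genes called between genotypes was 20 instead of 31 with no filter on low values, where 41926 genes were tested, and 25 to 40 when a mouse was left out. The replicate numbers share no stated origin, and deviations of same-numbered mice correlated at -0.0393 to 0.1491, over 0.1 in 1 of 8 pairs, with 3 of 8 ki/ki mice closest to their own number. With a replicate block 46 genes and none of the members were called, and the Plin4 difference beside the other members was 0.42. That difference ranged from 0.30 to 0.44 when a mouse was left out and from 0.39 to 0.42 under other scalings, pseudocounts and the block, and with other covariates in place of the 9 members it was 0.35 (nuclear RNAs) to 0.45 (Ncl). Of the members, 1 had an unadjusted p under 0.05 between genotypes with the replicate block, the fit that is not robust or Ncl as covariate. The median r of Plin4 with the other members was -0.085 to 0.18 without single mice, and r with Ncl was 0.888 to 0.928. The slope on Plin4 gave 2 calls when the variance estimate was not robust and 0 to 33 when a mouse was left out: 33 without wt/wt mouse 1, 3 without wt/wt mouse 2 and 1 without wt/wt mouse 3; the cause was not tested, and none of these calls was a member. Small differences changed sign: Errfi1 was 0.000412 after scaling to equal totals and -0.0242 to 0.0208 without single mice, and under the same omissions Tsc22d3 was -0.00271 to 0.0307 and Nfkbia -0.0960 to 0.0150. Depth per mouse is unknown, so the precision of low genes such as Hif3a cannot be stated beyond the spread between mice.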
